A study of Homo sapiens with 50 samples.

Results

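The 7 genes described here encode plasma membrane or lysosomal carriers that move serine, glycine, alanine, glutamine and related neutral amino acids: SLC1A4, SLC1A5, SLC38A1, SLC38A2, SLC38A4, SLC6A9 and SLC36A1. They were taken by name from the 18239 genes that the array annotation ties to at least 1 probe set of their own, and each was read from the brightest of its probe sets by mean signal across the 50 arrays. All 7 had such a probe set, and no filter on low signals was applied. The study, by its title, asked how a small molecule that activates the pyruvate kinase PKM changes the need of cancer cells for serine. The values here describe something narrower, the RNA of carriers for serine and other neutral amino acids, and no uptake was measured.

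All arrays hold RNA of A549, 1 human lung adenocarcinoma cell line, so nothing here speaks for other lines. The cells were kept in RPMI medium, and 3 arrays were made before any change of medium. The other cells were moved to BME medium with non-essential amino acids, either lacking or containing serine, for 24 h, and then received compound 16 at 1 uM or the solvent DMSO. They were harvested at 0, 1.5, 6 and 24 h after that addition, which gives 16 groups beside the cells before the change. Each of the 17 groups had 3 arrays, except DMSO with serine at 1.5 h, which had 2. At 0 h the compound and DMSO arms differ in their label and had no exposure time yet.

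The array medians lay between 5.4 and 5.54 on the log2 scale, and 2 arrays of a group differed with an SD between 0.193 and 0.255 over all genes. The epithelial keratins KRT8 and KRT18 had median signals of 13.59 and 14.35, and the NRF2 targets AKR1B10 and NQO1, known to be high in A549, had 14.36 and 13.92. Markers of alveolar type II cells, the cell type A549 is often said to model, were near the low end of the table, whose signals ran between 3.36 and 14.58: SFTPA1 had a median of 3.92, SFTPB of 4.63, SFTPC of 4.92 and NKX2-1 of 4.73. PTPRC, CD3E, COL1A1 and PECAM1, which mark leukocytes, fibroblasts and endothelium, had medians between 4.1 and 4.53, while PDGFRB, of mesenchymal cells, had 4.89 and CD68, of macrophages, 7.51. Whether replicate arrays stem from separate cultures is not in the labels, so every p-value here reflects variation among the arrays that could be purely technical. The arrays also report RNA per total RNA of a culture, in which fewer cells expressing a gene and less RNA per cell cannot be told apart.

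As background, mammalian cells make serine out of a glycolytic intermediate or import it. SLC1A4 and SLC1A5 are sodium-dependent exchangers of the ASC type, which trade small neutral amino acids across the membrane, with SLC1A5 also a main route for glutamine. SLC38A1, SLC38A2 and SLC38A4 are sodium-coupled carriers of the system A type, SLC6A9 is the glycine transporter GLYT1, and SLC36A1 is a proton-coupled carrier of lysosomes and the cell surface. When amino acids run short, the kinase GCN2 favours translation of the transcription factor ATF4, which binds C/EBP-ATF type sites and raises genes for amino acid synthesis and uptake, several of these carriers among them.

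The promoters below are shown because 1 promoter window each of SLC1A4, SLC1A5 and SLC38A1 holds a C/EBP-ATF type match. The other windows of these 3 carriers hold none, and SLC38A2 is shown as a carrier with no match in its window. RefSeq promoter windows on GRCh38.p14 run from 250 bases before to 50 after each start, and all 7 carriers matched, with 12 windows. The motif TGATGNAA, searched on both strands and containing TGATGCAA as a special case, was found in 3 of these 12 windows and in 3.62% of all 35116 windows. The stricter TGATGCAA was found in 2 of the 12 windows and in 0.866% of all. SLC1A4 is shown at chr2:64989312-64989399, plus strand, bases -87 to 1 about the second of its starts. SLC1A5 is shown at chr19:46784864-46784991, minus strand, bases -177 to -50 about the third. SLC38A1 is shown at chr12:46266513-46266600, minus strand, bases -84 to 4 about the first, and SLC38A2 at chr12:46372774-46372873, minus strand, bases -100 to -1 about its only start in the table. Capitals mark the match, which in SLC1A4 lies on the opposite strand.
SLC1A4: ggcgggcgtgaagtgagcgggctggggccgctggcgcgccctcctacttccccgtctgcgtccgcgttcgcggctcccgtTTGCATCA
SLC1A5: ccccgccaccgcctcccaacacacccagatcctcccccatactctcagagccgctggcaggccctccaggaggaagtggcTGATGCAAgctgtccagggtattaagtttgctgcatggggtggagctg
SLC38A1: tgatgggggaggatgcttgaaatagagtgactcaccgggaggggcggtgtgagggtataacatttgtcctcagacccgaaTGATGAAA
SLC38A2: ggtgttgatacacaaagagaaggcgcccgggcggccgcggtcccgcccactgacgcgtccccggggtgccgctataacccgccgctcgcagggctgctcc
A match is a description of letters, and no array measured binding. The amino acid response element known for SLC38A2 lies in its first intron, outside such a window, so the absence of a match says nothing about the factor there. SLC38A4, SLC6A9 and SLC36A1 held no match in their windows. SLC1A4, SLC1A5 and SLC38A1, with a match, and SLC6A9 and SLC38A2, without one, were all called for the compound, as described below. Any link between a match and a call was not tested.

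In medium without serine, carriers were higher with compound 16 than with DMSO: SLC1A4, SLC1A5 and SLC38A1 at 6 h and 24 h, SLC38A2 at 6 h and SLC6A9 at 24 h. A gene was called when its Benjamini-Hochberg adjusted p over all genes of a comparison, from 1 limma fit of all arrays, was under 0.05. At 6 h without serine 4 of the 7 carriers were higher with compound than with DMSO and 0 were lower, where 2.72% of all genes were called and 1.49% were called higher. At 24 h without serine 4 were again higher and 0 lower, beside 7.06% of all genes called and 2.97% called higher. With serine, 4 were higher and 0 lower at 24 h, beside 1.37% called and 0.746% called higher. The 7 were chosen with earlier results of these data known, so the counts beside these shares are a description. The median log2 difference of the 7 was 0.39 at 6 h and 0.54 at 24 h without serine and 0.36 at 24 h with serine, while the median over all genes was -0.006, 0.002 and 0. In a fit of only the 6 arrays compared, 1 of the 4 calls was kept at 6 h without serine, that of SLC1A4, and 2 at 24 h with serine, those of SLC1A4 and SLC1A5, while all 4 were kept at 24 h without serine.

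**Figure D1:**
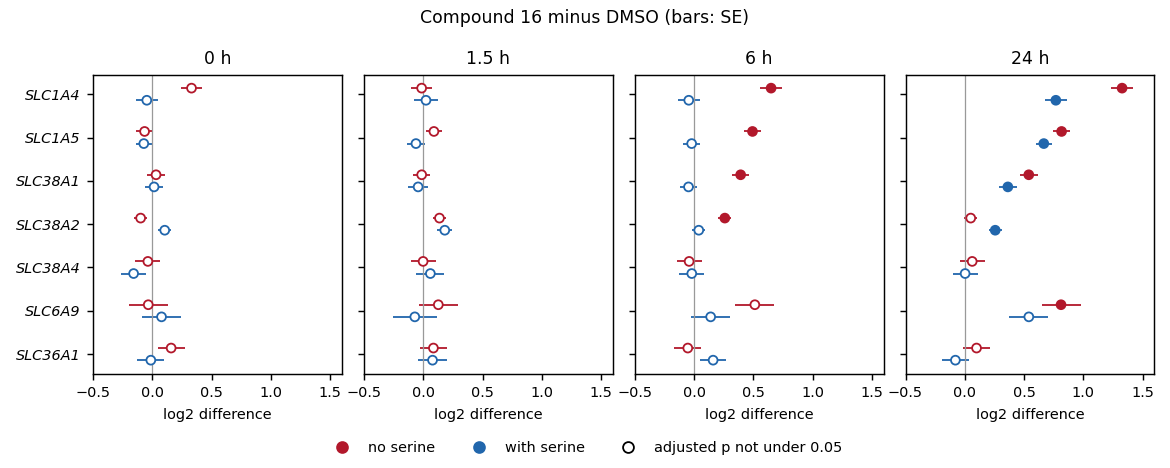
Log2 difference of compound 16 minus DMSO for each of the 7 carriers at 0, 1.5, 6 and 24 h, without and with serine, with bars of 1 standard error; open points did not reach an adjusted p under 0.05. SLC1A4 stands highest at 24 h without serine at 1.33, and SLC38A2 is called at 6 h without serine and at 24 h with serine.

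No carrier was called at the earlier times without serine or at 0, 1.5 and 6 h with serine. These comparisons had few calls over all genes: 0% at 0 h and 0.0822% at 1.5 h without serine, and 0% at 0, 1.5 and 6 h with serine. In limma's unadjusted tests, 1318 genes had p under 0.05 at 0 h without serine, 1029 at 0 h with serine, 614 at 1.5 h with serine and 1105 at 6 h with serine.

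SLC1A4 had the widest range of group means of the 7, 1.99 log2 units between its highest and lowest group, with a pooled SD within groups of 0.11. At 24 h without serine its signals were 8.505, 8.53 and 8.59 with compound, against 7.12, 7.24 and 7.29 with DMSO. The groups lay far apart, and the difference was 1.33 ± 0.09 (SE, adjusted p = 5.55e-14), a 2.51-fold rise and the 13th largest rise of all genes in that comparison. At 6 h without serine the arrays read 9.12, 9.16 and 9.33 with compound, against 8.43, 8.61 and 8.63 with DMSO. These groups did not overlap either, and compound was higher by 0.65 ± 0.09 (adjusted p = 5.92e-06).

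With serine present SLC1A4 was called at 24 h and at no earlier time. At 24 h its signals were 8.33, 8.39 and 8.41 with compound, against 7.54, 7.61 and 7.67 with DMSO, a difference of 0.77 ± 0.09 (adjusted p = 3.11e-07). At 6 h with serine they were 8.02, 8.25 and 8.33 with compound, against 8.16, 8.19 and 8.38 with DMSO. Those 6 arrays were intermixed, with a difference of -0.04 and a 95% interval between -0.23 and 0.14. A gap already stood at 0 h without serine, where the arrays read 7.82, 7.82 and 7.84 with compound, against 7.40, 7.49 and 7.61 with DMSO. That difference of 0.33 ± 0.09 had an adjusted p of 0.326, and its part in the later differences was not tested.

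SLC1A5 followed the same order in smaller steps. At 24 h without serine it had signals of 11.21, 11.26 and 11.34 with compound, against 10.37, 10.43 and 10.56 with DMSO. The arrays were apart by 0.82 ± 0.07 (adjusted p = 1.53e-11), 1.76-fold and the 52nd largest rise of all genes. At 6 h without serine the 3 compound arrays lay within 11.52 and 11.54, against 10.92, 11.09 and 11.11 with DMSO, a difference of 0.49 ± 0.07 (adjusted p = 5.74e-06). At 24 h with serine it had 11.25, 11.31 and 11.4 with compound, against 10.61, 10.65 and 10.7 with DMSO. That rise of 0.67 ± 0.07 (adjusted p = 1.16e-08) was close in size to the one without serine, and the difference between them, 0.15 ± 0.10, had an adjusted p of 0.629.

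**Figure D2:**
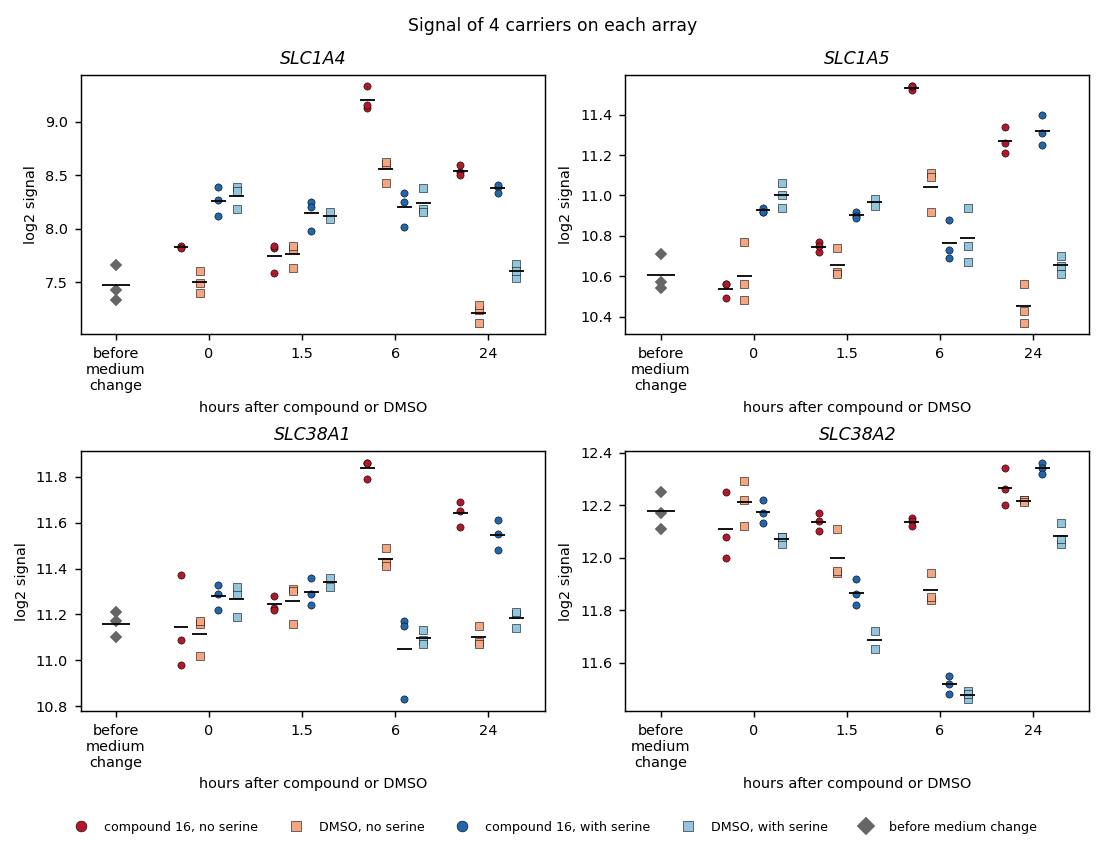
Log2 signal of SLC1A4, SLC1A5, SLC38A1 and SLC38A2 on every array, by hours after addition, for compound 16 and DMSO without and with serine, and, set apart, for cells not yet moved to the new medium; each point is 1 array. The compound arrays without serine stand highest at 6 h for SLC1A4, SLC1A5 and SLC38A1, and both arms with serine dip at 6 h for SLC38A2.

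Among the sodium-coupled carriers, SLC38A1 rose with the 2 exchangers. Its signals at 24 h without serine were 11.58, 11.65 and 11.69 with compound, against 11.07, 11.08 and 11.15 with DMSO, and it was higher by 0.54 ± 0.07 (adjusted p = 9.88e-07). At 6 h without serine it read 11.79, 11.86 and 11.86 with compound, against 11.41, 11.43 and 11.49 with DMSO. The groups were separate, with a difference of 0.39 ± 0.07 (adjusted p = 0.000673). At 24 h with serine it read 11.48, 11.55 and 11.61 with compound, against 11.14, 11.2 and 11.21 with DMSO, a rise of 0.36 ± 0.07 (adjusted p = 0.00344).

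SLC38A2, the system A carrier best known for its induction by amino acid lack, moved less with the compound. At 6 h without serine it had 12.12, 12.14 and 12.15 with compound, against 11.84, 11.85 and 11.94 with DMSO, and was higher by 0.26 ± 0.06 (adjusted p = 0.00333). At 24 h with serine it had 12.32, 12.34 and 12.36 with compound, against 12.05, 12.07 and 12.13 with DMSO, higher by 0.26 ± 0.06 (adjusted p = 0.00692). The groups did not overlap in either comparison. At 24 h without serine, however, the arrays read 12.2, 12.26 and 12.34 with compound, against 12.21, 12.22 and 12.22 with DMSO. These overlapped, and the difference of 0.05 had a 95% interval between -0.06 and 0.16. In the limma fit with the mean of its 3 probe sets, SLC38A2 was no longer called at 6 h without serine, with 0.08 and an adjusted p of 0.836, or at 24 h with serine, with 0.15 and 0.605.

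SLC6A9, which carries glycine, had a wider spread within groups than the exchangers, with a pooled SD of 0.21. At 24 h without serine its signals were 7.33, 7.7 and 7.83 with compound, against 6.76, 6.79 and 6.88 with DMSO. The arrays were apart by 0.81 ± 0.16 (adjusted p = 0.000707), the 54th largest rise of all genes. At 6 h without serine they were 7.38, 7.68 and 7.71 with compound, against 6.99, 7.04 and 7.19 with DMSO, and at 24 h with serine 7.19, 7.27 and 7.3 with compound, against 6.32, 6.77 and 7.05 with DMSO. Both pairs of groups were apart as well, with differences of 0.51 ± 0.16 and 0.54 ± 0.16 that did not reach the threshold (adjusted p = 0.0918 and 0.1). With DMSO array 96 left out, the last difference was 0.71 and was called (adjusted p = 0.0316). With the mean of all 7 probe sets of SLC6A9, the difference at 24 h without serine was 0.14 and was not called (adjusted p = 0.217).

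SLC36A1 and SLC38A4 were not called for the compound at any time. SLC36A1 at 24 h without serine read 6.67, 6.73 and 7 with compound, against 6.53, 6.61 and 6.96 with DMSO, which overlapped, with a difference of 0.10 (adjusted p = 0.722). For SLC38A4 all 50 arrays lay between 3.74 and 4.32, near the lowest signal of the table, and the table gives no detection call that would tell such a signal apart from background. Its log2 differences over the 30 comparisons ran between -0.26 and 0.21, and its smallest adjusted p was 0.102.

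**Figure D3:**
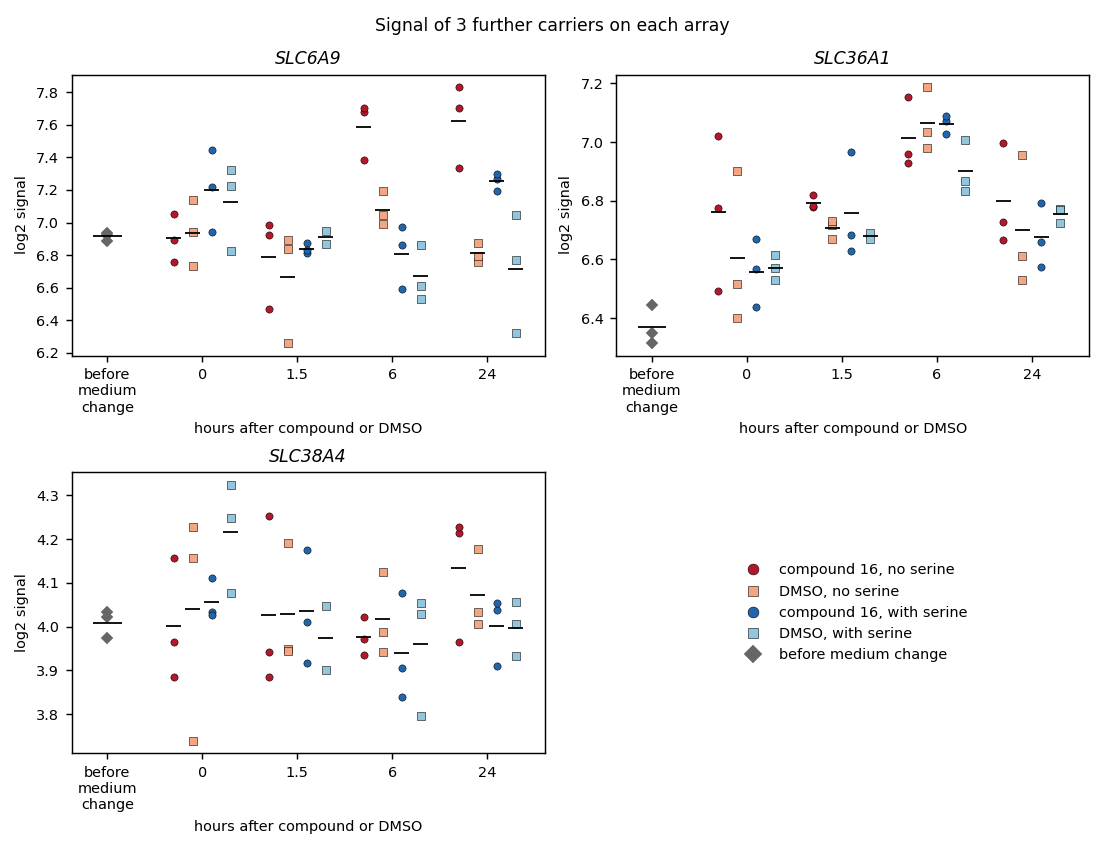
Log2 signal of SLC6A9, SLC36A1 and SLC38A4 on every array, by hours after addition, for compound 16 and DMSO without and with serine, and, set apart, for cells not yet moved to the new medium; each point is 1 array. SLC6A9 stands higher with compound at 24 h, SLC36A1, in the probe set used, is highest in all arms at 6 h, and SLC38A4 stays between 3.74 and 4.32.

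Whether the compound acted differently in the 2 media was tested as the effect without serine minus the effect with serine. At 6 h the effect was larger without serine for SLC1A4 by 0.69 ± 0.13 (adjusted p = 0.00149), for SLC1A5 by 0.51 ± 0.10 (adjusted p = 0.00203) and for SLC38A1 by 0.44 ± 0.10 (adjusted p = 0.0237), so 3 of 7 were called, beside 0.899% of all genes called and 0.62% called higher. SLC38A2 had 0.22 ± 0.08 and SLC6A9 0.37 ± 0.23, with adjusted p-values of 0.258 and 0.674. At 24 h only SLC1A4 was called among the 7, with 0.56 ± 0.13 (adjusted p = 0.0154), beside 1.28% of all genes called and 0.384% called higher. SLC38A2 had -0.21 ± 0.08 there (adjusted p = 0.251), with its 95% interval between -0.36 and -0.05. No carrier was called for this difference at 0 h, where 0% of all genes were called and 1070 had an unadjusted p under 0.05, or at 1.5 h, where 0.0164% were called. Yet at 0 h, before any exposure, SLC1A4 had 0.38 ± 0.13 (adjusted p = 0.617), with its 95% interval between 0.116 and 0.639. SLC38A2 had -0.20 ± 0.08 at 0 h (adjusted p = 0.727), with its 95% interval between -0.361 and -0.045. The part of these 0 h values in the later differences was not tested.

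The call of SLC38A1 at 6 h was lost when 1 array was left out, be it compound array 64 or 65 or DMSO array 67 or 68 without serine, or compound array 58 or DMSO array 61 with serine, with differences between 0.33 and 0.43 and adjusted p-values between 0.0596 and 0.136. That of SLC1A4 at 24 h was lost without the lowest of the DMSO arrays lacking serine (7.12), with 0.51 (adjusted p = 0.0631), or without DMSO array 97 of the medium with serine, with 0.53 (adjusted p = 0.0515). With the mean of its 6 probe sets SLC1A4 had 0.43 at 6 h (adjusted p = 0.0745) and 0.26 at 24 h (adjusted p = 0.374), and in a fit of only the 12 arrays at 6 h none of the 3 calls was kept (adjusted p = 0.0914, 0.17 and 0.293 for SLC1A4, SLC1A5 and SLC38A1).

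In DMSO the exchangers were lower without serine than with it at 0 h, and several carriers were higher without it at 6 h. At 0 h, after 24 h in the new medium, SLC1A4 had signals of 7.40, 7.49 and 7.61 without serine, against 8.18, 8.35 and 8.39 with serine. SLC1A5 had 10.48, 10.56 and 10.77 without serine, against 10.94, 11 and 11.06 with serine. Both sets of arrays were apart, with SLC1A4 lower by 0.81 on the log2 scale (difference -0.81 ± 0.09, adjusted p = 2.01e-07) and SLC1A5 at -0.40 ± 0.07 (adjusted p = 0.00029). So 0 of 7 were higher and 2 lower, beside 5.91% of all genes called and 2.92% called lower. SLC38A2 stood at 0.14 ± 0.06 without a call (adjusted p = 0.134). In a fit of only these 6 arrays neither call was kept (adjusted p = 0.0605 for SLC1A4 and 0.153 for SLC1A5).

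At 1.5 h in DMSO, SLC38A2 and SLC1A5 were called in opposite directions, 1 higher and 1 lower of the 7 beside 1.97% of all genes. SLC38A2 had 11.94, 11.95 and 12.11 without serine, against 11.65 and 11.72 with serine, higher by 0.32 ± 0.06 (adjusted p = 0.00251). SLC1A5 had 10.61, 10.62 and 10.74 without serine, against 10.95 and 10.98 with serine, a difference of -0.31 ± 0.08 (adjusted p = 0.0236). Both were apart over the 5 arrays. SLC1A4 was at -0.36 ± 0.10 (adjusted p = 0.0561), and was called with array weights, with arrays centred and with dim genes left out (adjusted p = 0.022, 0.0391 and 0.0283). The call of SLC1A5 was lost without DMSO array 55 or 56 lacking serine or 49 or 50 with serine (adjusted p between 0.083 and 0.23), and that of SLC38A2 without array 50 (0.28, adjusted p = 0.109). In a fit of these 5 arrays alone both were lost (adjusted p = 0.314 for SLC38A2 and 0.303 for SLC1A5), and with the mean of its probe sets SLC38A2 had 0.20 (adjusted p = 0.514).

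At 6 h in DMSO, 3 of 7 were higher without serine and 0 lower, beside 3.18% of all genes called and 1.75% called higher. SLC38A2 had the largest difference of these 3. It read 11.84, 11.85 and 11.94 without serine, against 11.46, 11.48 and 11.49 with serine, higher by 0.40 ± 0.06 (adjusted p = 9.01e-06). Relative to 0 h in DMSO, SLC38A2 was lower in both media, at -0.33 without serine and -0.59 with serine. SLC38A1 had 11.41, 11.43 and 11.49 without serine, against 11.07, 11.09 and 11.13 with serine, higher by 0.35 ± 0.07 (adjusted p = 0.00332). The arrays of SLC38A2 and SLC38A1 did not overlap between media, whereas those of SLC1A5 did: 10.92, 11.09 and 11.11 without serine, against 10.67, 10.75 and 10.94 with serine, with 0.25 ± 0.07 (adjusted p = 0.0312). SLC1A4 had 0.31 ± 0.09, just short of the threshold (adjusted p = 0.0501) and past it with array weights and with dim genes left out (adjusted p = 0.033 and 0.0259). SLC6A9 had 0.41 ± 0.16, with its arrays apart but no call (adjusted p = 0.221). SLC1A5 lost its call without DMSO array 67 or 68 lacking serine or 60 or 61 with serine (0.20 to 0.24, adjusted p between 0.113 and 0.205). In a fit of only the 6 arrays all 3 calls were lost (adjusted p = 0.106, 0.15 and 0.377 for SLC38A2, SLC38A1 and SLC1A5).

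By 24 h in DMSO no carrier was called, where 0.159% of all genes were. SLC1A4 read 7.12, 7.24 and 7.29 without serine, against 7.54, 7.61 and 7.67 with serine, which did not overlap but missed the threshold at -0.39 ± 0.09 (adjusted p = 0.0638). It was called lower with arrays centred on their medians (-0.42, adjusted p = 0.0414) and with dim genes left out (adjusted p = 0.0304).

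In the compound arms the same comparison of media gave its widest differences at 6 h. There 5 of 7 carriers were higher without serine and 0 lower, beside 11.8% of all genes called and 6.22% called higher. SLC1A4 had 9.12, 9.16 and 9.33 without serine, against 8.02, 8.25 and 8.33 with serine, higher by 1.01 ± 0.09 (adjusted p = 9.35e-11). SLC38A1 was higher by 0.79 ± 0.07 (adjusted p = 1.97e-10), SLC1A5 by 0.77 ± 0.07 (adjusted p = 7.96e-11), and SLC38A2 by 0.62 ± 0.06 (adjusted p = 6e-11). Relative to 0 h with compound, SLC38A2 was at 0.03 without serine and at -0.66 with serine. SLC6A9, at 7.38, 7.68 and 7.71 without serine, against 6.59, 6.86 and 6.97 with serine, was higher by 0.78 ± 0.16 (adjusted p = 0.00082). None of these 5 carriers had overlapping arrays between media. SLC36A1 had -0.05 and an adjusted p of 0.863. With the mean of all its probe sets SLC6A9 had 0.08 and lost its call.

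The other compound arms gave fewer calls between media. At 0 h 2 of 7 were lower without serine, beside 4.12% of all genes called and 1.75% called lower: SLC1A4 at -0.43 ± 0.09 (adjusted p = 0.00318) and SLC1A5 at -0.39 ± 0.07 (adjusted p = 0.000496). At 1.5 h SLC1A4 was lower, at -0.40 ± 0.09 (adjusted p = 0.0074), and SLC38A2 higher, at 0.27 ± 0.06 (adjusted p = 0.00204), beside 3.33% of all genes. At 24 h 0 of 7 were called, beside 4.39%, and SLC1A4 was at 0.17 ± 0.09 (adjusted p = 0.382). The compound and DMSO arms share no arrays in these comparisons, but each shares its arrays with the compound comparisons above. In fits of only the 6 arrays compared, no call was kept at 0 or 1.5 h (adjusted p between 0.132 and 0.179), and SLC1A4 at 1.5 h also lost its call without compound array 53 lacking serine or 47 or 48 with serine (adjusted p between 0.0503 and 0.0942). Both calls at 1.5 h were lost when probe sets were averaged: SLC38A2 turned to -0.038 (adjusted p = 0.922) and SLC1A4 was at -0.13 (adjusted p = 0.534).

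**Figure D4:**
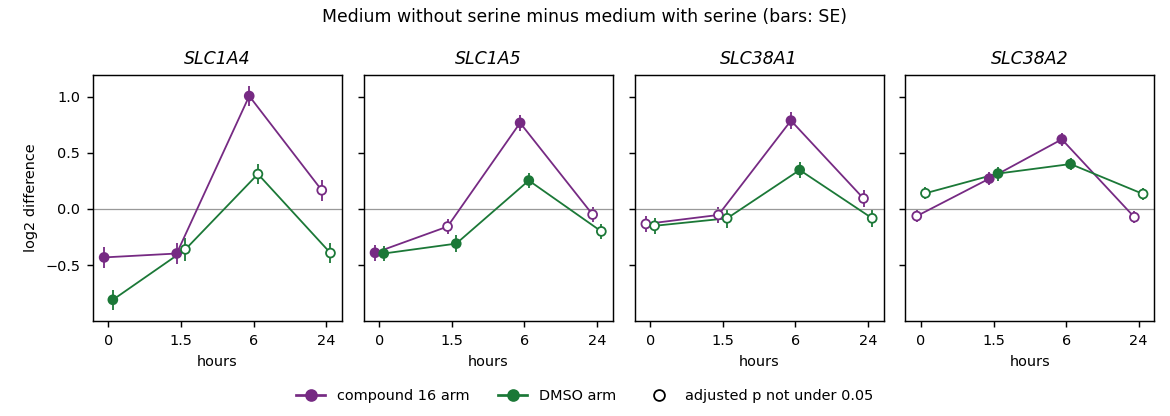
Log2 difference of medium without serine minus medium with serine over time for SLC1A4, SLC1A5, SLC38A1 and SLC38A2, in the compound and DMSO arms, with bars of 1 standard error. SLC1A4 is below the zero line at 0 and 1.5 h in both arms and reaches 1.01 at 6 h with compound, and SLC38A2 is above it in both arms at 1.5 and 6 h.

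After the change of medium the exchangers were called in medium with serine and not in medium without it, a difference that the comparison of media at 0 h above tests. In DMSO with serine at 0 h, SLC1A4 had 8.18, 8.35 and 8.39, against 7.33, 7.43 and 7.66 before the change, a rise of 0.83 ± 0.09 (adjusted p = 4.41e-09). SLC1A5 had 10.94, 11 and 11.06 with serine, against 10.54, 10.57 and 10.71 before the change, a rise of 0.39 ± 0.07 (adjusted p = 3.35e-05). These were 2 of 7 higher and 0 lower, beside 21.7% of all genes called and 12.3% called higher. In medium without serine 0 of 7 were called, beside 28.6% of all genes: SLC1A4 was at 0.02 ± 0.09, SLC1A5 at 0.00 ± 0.07, SLC38A1 at -0.04 ± 0.07 and SLC38A2 at 0.03 ± 0.06 (adjusted p = 0.895, 0.979, 0.73 and 0.723). Both comparisons share the 3 arrays before the change. The numbers that end the array titles form 1 block per time and a separate block for the cells in RPMI, so block and time, or block and change of medium, cannot be told apart. Within a time the numbers run through 1 group after another, so that order and compound, or order and serine, cannot be told apart in the other comparisons either.

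Over time without serine the exchangers and SLC38A1 had their highest group means at 6 h in both arms. With compound, 4 of 7 were higher at 6 h than at 0 h and 0 lower, beside 19.9% of all genes called and 6.43% called higher: SLC1A4 by 1.38 ± 0.09, SLC1A5 by 1.00 ± 0.07, SLC38A1 by 0.69 ± 0.07 and SLC6A9 by 0.69 ± 0.16. At 24 h relative to 6 h with compound, 2 were lower and 0 higher, beside 10.6% called and 7.23% called lower: SLC1A4 at -0.66 ± 0.09 and SLC1A5 at -0.26 ± 0.07. In DMSO without serine 4 were higher and 1 lower at 6 h than at 0 h, beside 22.4%. SLC1A4 rose by 1.06 ± 0.09 (adjusted p = 1.29e-10) and SLC36A1 by 0.46 ± 0.11 (adjusted p = 0.00263), while SLC38A2 was at -0.33 ± 0.06 (adjusted p = 2.53e-05). Between 24 h and 6 h in DMSO all 5 turned back, beside 11.8% of genes called: SLC1A4 was at -1.34 ± 0.09 (adjusted p = 1.91e-13), SLC1A5 at -0.59 ± 0.07, SLC36A1 at -0.37 ± 0.11 and SLC38A1 at -0.34 ± 0.07, and SLC38A2 at 0.34 ± 0.06. The last calls of SLC36A1 and of SLC1A5 with compound depended on single arrays: SLC36A1 lost its call without either of its 2 lower DMSO arrays at 24 h or array 66 or 68 at 6 h (-0.38 to -0.28, adjusted p between 0.0519 and 0.164), and SLC1A5 lost its own without compound array 101 at 24 h (-0.23, adjusted p = 0.0541). Averaged over its probe sets, SLC36A1 was called in neither step in DMSO (0.099, adjusted p = 0.377, and -0.06, adjusted p = 0.721), and SLC38A1 lost its step back (-0.15, adjusted p = 0.143). In fits of only the arrays compared SLC36A1 also lost both calls (adjusted p = 0.0754 and 0.156), as did SLC1A5 at 24 h with compound (adjusted p = 0.0803).

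SLC38A2 had its lowest levels in the middle of the course with serine. With compound its arrays read 12.13, 12.17 and 12.22 at 0 h, 11.82, 11.86 and 11.92 at 1.5 h, 11.48, 11.52 and 11.55 at 6 h, and 12.32, 12.34 and 12.36 at 24 h. It was therefore lower at 6 h than at 0 h (-0.66 ± 0.06, adjusted p = 6.69e-11) and higher at 24 h than at 6 h (0.82 ± 0.06, adjusted p = 4.28e-14). In DMSO the same steps were -0.59 ± 0.06 (adjusted p = 7.69e-10) and 0.61 ± 0.06 (adjusted p = 2.35e-10). These steps were shared by both arms, and its 3 groups with the lowest means were all with serine, DMSO at 1.5 h and compound and DMSO at 6 h.

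Other carriers with serine moved less in the early course. With compound at 6 h relative to 0 h, 1 of 7 was higher and 2 lower, beside 14.5% of all genes, SLC36A1 at 0.51 ± 0.11 (adjusted p = 0.00167) and SLC38A1 at -0.23 ± 0.07 (adjusted p = 0.0294) beside SLC38A2. In DMSO it was again 1 higher and 2 lower, beside 14.3%, SLC36A1 at 0.33 ± 0.11 (adjusted p = 0.0432) and SLC1A5 at -0.21 ± 0.07 (adjusted p = 0.0317). At 24 h relative to 6 h with compound, 3 were higher and 1 lower, beside 20.1%: SLC1A5 rose by 0.55 ± 0.07, SLC38A1 by 0.50 ± 0.07 and SLC38A2 as given, and SLC36A1 was at -0.39 ± 0.11. In DMSO 1 was higher, SLC38A2, and 1 lower, SLC1A4 at -0.63 ± 0.09 (adjusted p = 2.32e-06), beside 15.5%. The step of SLC1A4 with compound was 0.18 ± 0.09 (adjusted p = 0.194), and the difference between the arms was not tested. With the mean of its probe sets SLC1A4 had -0.16 in DMSO (adjusted p = 0.23) and 0.24 with compound, which was then called (adjusted p = 0.0357). Several of these small steps depended on 1 array. SLC36A1 in DMSO at 6 h lost its call without any 1 of its 6 arrays (adjusted p between 0.0589 and 0.17), SLC1A5 there without array 14, 15, 60 or 61 (adjusted p between 0.0736 and 0.204), and SLC38A1 with compound without array 10, 11 or 58 (-0.23 to -0.12, adjusted p between 0.0745 and 0.328). When probe sets were averaged, SLC36A1 had 0.11 with compound (adjusted p = 0.371) and 0.14 in DMSO (adjusted p = 0.219) at 6 h and -0.08 with compound at 24 h (adjusted p = 0.518), so it kept no call, while SLC38A1 turned to 0.072 with compound (adjusted p = 0.512). SLC36A1 at 24 h with compound lost its call without array 94 (-0.34, adjusted p = 0.0644).

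Ordered by group mean, SLC1A4 was highest with compound without serine at 6 h (9.20), followed by DMSO without serine at 6 h (8.55), and lowest in DMSO without serine at 24 h (7.21), below even the cells before the change of medium (7.47). Of the 16 neighbouring pairs in this order 12 had overlapping arrays, and the highest and the lowest group each stood clear of its neighbour. SLC1A5 and SLC38A1 had the same group on top, at 11.53 and 11.84, with 13 of 16 neighbouring pairs overlapping for each. For SLC38A2 the top was compound with serine at 24 h (12.34) and the bottom DMSO with serine at 6 h (11.48), with 14 of 16 overlapping. For SLC6A9 compound without serine at 24 h led with 7.62 and 15 of 16 pairs overlapped, and for SLC36A1 the order ran between 7.07 in DMSO without serine at 6 h and 6.37 before the change, with all 16 overlapping.

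The other probe sets of a carrier did not always follow the one used. In compound relative to DMSO at 24 h without serine, the 3 probe sets of SLC1A5 had log2 differences between 0.69 and 0.89 and the 5 of SLC38A1 between 0.47 and 0.68. The 6 of SLC1A4 were all positive but ranged between 0.33 and 1.36. SLC6A9 rested on 1 probe set: the other 6 had mean signals between 4.2 and 5.25 and differences between -0.26 and 0.34. For SLC38A2 the other probe sets had -0.58 and -0.14, against 0.05 for the one used. At 6 h without serine those of SLC38A1 spread wider, between -0.015 and 0.51, and those of SLC1A4 between 0.07 and 0.86. The probe sets of SLC1A5 had 0.47 to 0.53 there. Over the 17 group means the other probe sets of SLC38A1 had r between 0.62 and 0.94 with the one used. SLC36A1 rested on 1 probe set as well: over the 17 group means its other 5 had r between -0.24 and 0.59 with the one used, and with the mean of all 6 it kept none of its calls. By the endings of their names, the probe sets used for SLC1A5, SLC38A1 and SLC36A1 are of types whose probes can also match transcripts of other genes.

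**Figure D5:**
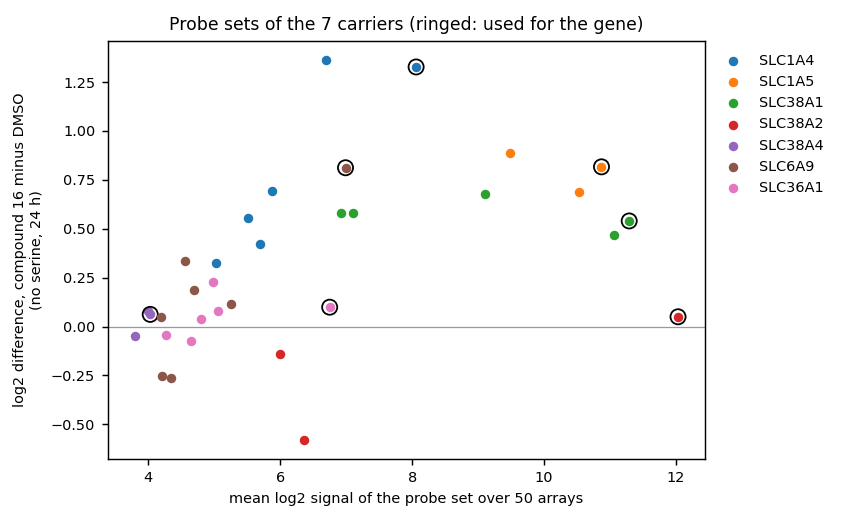
Log2 difference of compound 16 minus DMSO at 24 h without serine against mean log2 signal over all arrays, for the 33 probe sets annotated to the 7 carriers; rings mark the probe set used for each gene. All probe sets of SLC1A4, SLC1A5 and SLC38A1 are above the zero line, and those of SLC6A9 and SLC38A2 are on both sides.

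The genes most like each carrier were found by Pearson's r over the 17 group means, points that share the fit's arrays and all treatments, so r is given as a description. SLC1A5 was closest to GARS1 (r = 0.972), CARS1 (0.967) and PSAT1 (0.966), and SLC38A1 to CARS1 (0.968), GARS1 (0.964) and PSPH (0.95). GARS1 and CARS1 are aminoacyl-tRNA synthetases, and PSAT1 and PSPH are enzymes of serine synthesis. SLC1A4 was closest to SLC7A1 (0.936), the cationic amino acid carrier, with SEC63 (0.931) and HKDC1 (0.929) nearly level. SLC6A9 was closest to EIF4EBP1 (0.932), a translation repressor, NARS1 (0.927) and PSPH (0.915). SLC38A2 was closest to ITGA2 (0.92), an integrin subunit, and SLC36A1 to ACP1 (0.93), a phosphatase. With ASNS, the asparagine synthetase that responds to amino acid lack, r over the same 17 means was 0.96 for SLC1A5, 0.9 for SLC38A1, 0.87 for SLC1A4 and 0.84 for SLC6A9, but 0.28 for SLC36A1, 0.2 for SLC38A2 and 0.14 for SLC38A4. With PHGDH, an enzyme of serine synthesis, r was 0.75 for SLC1A5, 0.77 for SLC38A1, 0.61 for SLC1A4 and 0.77 for SLC6A9. It was 0.21 for SLC36A1, 0.4 for SLC38A2 and 0.25 for SLC38A4.

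Further amino acid carriers were counted in the same way. Of 24 further carriers of the SLC1, SLC6, SLC36 and SLC38 families, 0 were called for the compound at 6 h without serine. The share of all genes called there was 2.72%. At 24 h with serine 0 of the 24 were called as well, beside 1.37% of all genes. Both counts of 0 are near what any 24 genes would give. At 24 h without serine 7.06% of all genes were called in either direction and 2.97% were called higher. Of the 24 carriers, 0 were higher and 3 lower, with a median of -0.05. These were SLC6A14, a broad neutral and cationic carrier, at -0.69 ± 0.17 (adjusted p = 0.00614), SLC36A4 at -0.40 ± 0.09 (adjusted p = 0.00267) and SLC38A6 at -0.28 ± 0.07 (adjusted p = 0.00727). Of 13 genes, made up of SLC3A2 and carriers of the SLC7 and SLC43 families, 4 were higher and 0 lower at both 6 h and 24 h without serine. The shares of all genes called higher there were 1.49% and 2.97%. SLC7A1 had 0.67 ± 0.06 at 6 h and 1.02 ± 0.06 at 24 h, and the heavy chain SLC3A2 0.46 ± 0.07 and 0.55 ± 0.07. At 24 h with serine 3 of the 13 were higher and 1 lower, beside 1.37% of all genes called. Of 4 mitochondrial carriers of serine and glycine, SFXN1 among them, 0 were called for the compound at 6 h or 24 h without serine or at 24 h with serine. The shares of all genes called were 2.72%, 7.06% and 1.37%, so 0 of 4 is near what any 4 genes would give. Of 5 genes for serine synthesis and cleavage, 4 were higher and 0 lower at 24 h without serine, and 4 higher and 1 lower at 24 h with serine, against the same shares of all genes.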

How the data were processed

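The values are log2 probe set signals from 50 Affymetrix HG-U219 arrays of total RNA, which the authors made with RMA per the submitters' processing notes (limma is named there too). Versions are not given in the sources here. RMA normalizes between arrays and compresses changes of dim probe sets. Columns without a sample numbered 0, and no 2 arrays were identical.

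Of 49386 probe sets, 45259 carry 1 gene symbol in the platform annotation, and 0 of these needed an update through gene IDs. The brightest probe set by mean signal stood for each of 18239 genes, unfiltered. With limma 3.58.1 in R 4.3.3, the 17 group means were estimated jointly on all arrays and moderated by eBayes (33 residual, 3.7 prior degrees of freedom). The 30 comparisons covered compound, serine, their interaction, the change of medium and time, each with Benjamini-Hochberg adjustment over all genes and calls at 0.05. The typical (median) standard error between groups of 3 was 0.122 log2 units, a precision set by the array number. The procedure was tested on simulated data. All 7 members are named throughout, with up to 3 genes most like each, and other genes as the 2 leading ones of a list, its only called ones, or where a result turns on them. The members and gene lists were chosen with earlier results of these data known. The alternatives averaged all probe sets of a gene, dropped genes whose mean signal was below the 40th percentile, applied quantile normalization, centred arrays on their medians, fitted 1 comparison's arrays alone, used a trended robust prior or array weights, or left out each array in turn. Figures were drawn with matplotlib 3.10.9.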

Additional observations from a re-analysis of the deposited data

Results flagged for a closer look

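Tests of the difference between media singled out 4 compound effects, all larger without serine than with it. For SLC1A4 at 6 h the effect was 0.65 without serine and -0.04 with serine, a difference of 0.69. For SLC1A5 at 6 h it was 0.49 without serine and -0.02 with serine, a difference of 0.51. For SLC38A1 at 6 h it was 0.39 without serine and -0.05 with serine, a difference of 0.44. For SLC1A4 at 24 h it was 1.33 without serine and 0.77 with serine, a difference of 0.56. All are log2 differences from the limma fit, with adjusted p-values of 0.00149, 0.00203, 0.0237 and 0.0154. Before any exposure, at 0 h, SLC1A4 already had a difference of 0.38 ± 0.13 (adjusted p = 0.617). The calls of SLC38A1 at 6 h and SLC1A4 at 24 h were lost without single arrays, as named above, and no cause was tested. With the mean of its probe sets SLC1A4 lost its call at 6 h (0.43, adjusted p = 0.0745) and at 24 h (0.26, adjusted p = 0.374). In a limma fit of only the arrays compared, no call at 6 h was kept (adjusted p = 0.0914, 0.17 and 0.293 for SLC1A4, SLC1A5 and SLC38A1).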

How the results depend on the processing

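Of 210 values (7 carriers, 30 comparisons), 62 were called. Of these, 32 lost the call under at least 1 of the 7 other settings and 12 when 1 array was left out, and 73 values changed sign under some setting without being called under it or in the values reported, 166 times in all. No paired analysis was possible because no groups share replicate numbers. Neither centring nor quantile normalization moved the median of all genes by 0.1. SLC38A4 has no value with dim genes left out.

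A fit of only the arrays compared has far fewer arrays behind its spread. It called 1 carrier in place of 4 for compound relative to DMSO at 6 h without serine, 2 in place of 4 at 24 h with serine, and 0 in place of 3 for the difference of these effects at 6 h. Between media it called 0 in place of 2 in both arms at 0 h and 1.5 h, and 0 in place of 3 in DMSO at 6 h. It called 1 in place of 2 for 24 h relative to 6 h with compound without serine and 1 in place of 3 for 6 h relative to 0 h in DMSO with serine.

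Averaging all probe sets gave 3 in place of 5 for 24 h relative to 6 h in DMSO without serine, 1 in place of 2 in DMSO with serine, 1 in place of 3 for 6 h relative to 0 h with compound and serine, 0 in place of 1 for the difference of compound effects at 24 h, 1 in place of 0 for the change to medium without serine, and 1 in place of 2 between media at 1.5 h in both arms, where with compound both calls were lost and SLC1A5 was called instead (adjusted p = 0.0483). It turned 3 values: SLC38A1 at 6 h relative to 0 h with serine had 0.072 in place of -0.23 with compound (adjusted p = 0.512) and 0.23 in place of -0.17 in DMSO (adjusted p = 0.0116), and SLC38A2 between media with compound at 1.5 h had -0.038 in place of 0.27 (adjusted p = 0.922). Averaging also lost the compound calls of SLC38A2 at 6 h without serine and at 24 h with serine, and of SLC6A9 at 24 h without serine. The call of SLC1A4 for the difference of effects at 6 h was lost as well, as was that of SLC6A9 between media with compound at 6 h. Smaller changes of a count are not all listed in this section. Centring arrays and leaving out dim genes each gave 1 in place of 0 between media in DMSO at 24 h. The cause was not tested.

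With 1 array left out, the compound comparisons gave 4 at 6 h and 24 h without serine, 4 to 5 at 24 h with serine and 0 otherwise, and their difference 0, 0, 2 to 3 and 0 to 1 at 0, 1.5, 6 and 24 h. Between media at these times the counts were 2 to 3, 1 to 2, 5 and 0 with compound, and 2, 0 to 2, 2 to 4 and 0 in DMSO. The change of medium gave 0 to 1 without and 2 with serine. For 6 h relative to 0 h without serine they were 4 to 5 with compound and 5 in DMSO, and with serine 2 to 3 and 1 to 3. For 24 h relative to 6 h without serine they were 1 to 2 and 4 to 5, and with serine 3 to 5 and 2.

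Over all genes, the fit of only the arrays compared called, for the compound, 0 in place of 15 at 1.5 h, 89 in place of 496 at 6 h and 439 in place of 1287 at 24 h without serine, and 24 in place of 249 at 24 h with serine. The difference of effects gave 0 in place of 3, 56 in place of 164 and 67 in place of 234 at 1.5, 6 and 24 h. Between media in DMSO it called 6 in place of 1078, 1 in place of 360, 25 in place of 580 and 0 in place of 29 in order of time, and with compound 0 in place of 751, 87 in place of 608, 814 in place of 2147 and 91 in place of 800. The time comparisons gave 536 to 2009 in place of 1926 to 4087, and the change to medium with serine 2514 in place of 3963. Other settings gave up to 772 and 389 for the compound at 6 h without and 24 h with serine, and leaving out 1 array as few as 307 and 127.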
